A study of Mus musculus with 8 samples.

Results

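The genes of MHC class II antigen presentation were 8 genes chosen by symbol, H2-Aa, H2-Ab1, H2-Eb1, Cd74, Ciita, H2-DMa, H2-DMb1 and Ctss, of the 22565 protein-coding genes listed. They were compared in whole liver RNA between male C57BL/6J mice treated with dexamethasone, a potent ligand of the glucocorticoid receptor, and male C57BL/6J mice given saline as vehicle. All mice were 10 weeks old and were injected into the peritoneum every day for 14 days, with dexamethasone at 1 mg/kg or with saline. Each group held 4 libraries of ribosomal RNA-depleted RNA, called here dexamethasone 1 to 4 and vehicle 1 to 4. The labels do not say whether each library came from a separate mouse, so p-values measure the spread between these libraries, which may be technical in part. Levels are in FPKM, in which fragments are divided by transcript length and library size, so that different genes can be compared per length. In the deposited values this division was not the same in every library, as given below for H2-DMa. Of the 8 genes, 5 were tested because 4 or more libraries had at least 0.5 FPKM, while Ciita, H2-DMa and H2-DMb1 did not and are given as values.

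MHC class II molecules are pairs of an alpha and a beta chain that hold peptides from proteins taken up by the cell and show them to CD4 T cells. New pairs assemble in the endoplasmic reticulum with the invariant chain, the product of Cd74, which fills the peptide groove and directs the complex to endosomes. There cathepsin S, the product of Ctss, trims the invariant chain, and the DM molecule, built from H2-DMa and a DM beta chain, exchanges the remaining fragment for a peptide. Ciita encodes the coactivator that switches on class II genes by docking on the factors RFX, CREB and NF-Y at their promoters, and interferon gamma induces it, in part through Irf1. In liver the genes are mainly transcribed in dendritic cells, B cells and, at lower levels, Kupffer cells and endothelium, and not in resting hepatocytes. C57BL/6 mice make I-A, from H2-Aa and H2-Ab1, but no I-E on the cell surface, because their I-E alpha chain gene is defective. H2-Eb1, the I-E beta chain gene, is still transcribed.

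On GRCm38 (GENCODE M21), H2-Aa (ENSMUSG00000036594) lies on the minus strand of chromosome 17 at 34282744 to 34287823. H2-Ab1 (ENSMUSG00000073421) at 34257689 to 34269419 and H2-Eb1 (ENSMUSG00000060586) at 34305867 to 34316674 flank it on the plus strand. H2-DMa (ENSMUSG00000037649) at 34119541 to 34139101 and H2-DMb1 (ENSMUSG00000079547) at 34153072 to 34160230 lie on the plus strand of the same chromosome. Ciita (ENSMUSG00000022504) is on chromosome 16 at 10480059 to 10528418 and Ctss (ENSMUSG00000038642) on chromosome 3 at 95526786 to 95556403, both on the plus strand, and Cd74 is on another chromosome. In annotated exons, Ciita overlaps Dexi by 329 bases and H2-DMa overlaps Brd2 by 360 bases, both on the opposite strand, and whether the counting used strand is not given in the sources used here. In the deposited table H2-Aa, H2-Ab1 and H2-Eb1 carry the same merged locus. The deposited loci of Ciita (10485540 to 10779515) and Ctss (94912542 to 95725657) also run beyond the annotated genes. That of H2-DMa (34135181 to 34139101) starts within the annotated gene, and whether it holds the overlap with Brd2 was not checked. H2-DMb1 also has a close copy, H2-DMb2, so its low values are uncertain for that reason too.

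Promoter sequence from RefSeq (GRCm38.p6) was found for 5 of the 8 genes, H2-Aa, H2-Eb1, H2-DMa, H2-DMb1 and Ctss. Stretches of 100 bases before the start of 3 tested genes are shown because 2 of them, H2-Aa and H2-Eb1, were lower with dexamethasone and Ctss did not pass the test. Capitals mark TGACGTCA (the cyclic AMP response element, as in the X2 box) and CTGATTGG (an inverted CCAAT box, the Y box that NF-Y binds) in H2-Aa. In H2-Eb1 they mark ACNGATG (the X box searched for RFX) and CTGATTGG, and in Ctss an interferon response element (GAAA, any 2 bases and GAAA, a form that interferon regulatory factors bind).
H2-Aa, chr17:34287854-34287953, minus strand: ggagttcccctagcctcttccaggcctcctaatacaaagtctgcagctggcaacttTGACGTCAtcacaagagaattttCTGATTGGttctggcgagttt
H2-Eb1, chr17:34305737-34305836, plus strand: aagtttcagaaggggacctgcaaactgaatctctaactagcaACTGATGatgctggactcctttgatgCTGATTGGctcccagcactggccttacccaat
Ctss, chr3:95526686-95526785, plus strand: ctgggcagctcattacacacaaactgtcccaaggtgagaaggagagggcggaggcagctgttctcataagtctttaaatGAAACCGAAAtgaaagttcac

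In H2-Eb1 the X box began at position -88 and the CTGATTGG at -62 relative to the annotated start, and in H2-DMb1 an X box began at -91 and an ATTGG at -61. In H2-Aa the TGACGTCA began at -74 and the CTGATTGG at -51, while ACNGATG occurred only on the other strand, at -232. Ctss held the interferon response element at -21 and ACNGATG at -206, and neither window of H2-DMa held ACNGATG. Over both strands of all 32851 RefSeq windows (250 bases before to 50 after each start), ACNGATG was in 9.85%, ATTGG, which lies within CTGATTGG, in 37.4%, CTGATTGG in 4.10%, TGACGTCA in 1.79% and the interferon response element in 3.44%. An ACNGATG and an ATTGG 20 to 40 bases apart, as in H2-Eb1 and H2-DMb1, were in 53 windows, or 0.161%. All but ACNGATG and ATTGG were chosen after these sequences were seen, and a match is a description of letters, not a bound site.

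The libraries differed in depth and in the share taken by a single gene. From the step of the deposited scaled counts, dexamethasone libraries held 1361293 to 2219958 fragments on protein-coding genes, and vehicle libraries 2077507 to 3360083. Lars2, a mitochondrial leucyl-tRNA synthetase gene, took 28.4 to 51.1% of these fragments with dexamethasone and 14.5 to 25.3% with vehicle. The share was highest in dexamethasone 4, which also had the fewest fragments. The median log2 fold change (dexamethasone over vehicle, of FPKM + 1) of all 10221 tested genes was -0.28 as deposited and -0.003 after median-ratio scaling between libraries, so each change is given both ways. The tissue label was checked with 7 hepatocyte markers, albumin included, whose sum was 9092 to 17101 FPKM with dexamethasone and 15968 to 23048 FPKM with vehicle.

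The 2 chains of I-A, the invariant chain and the I-E beta chain had lower levels in dexamethasone livers than in vehicle livers, as deposited and after median-ratio scaling. The I-E beta chain passed the test as deposited and not after that scaling, and none of the 5 tested genes was higher. Of the 5 tested genes, 4 passed the test as lower (limma, Benjamini-Hochberg adjusted p under 0.05 over all 10221 genes), where 7.85% of all tested genes did, and 0 passed as higher, where 1.37% did. After median-ratio scaling 3 passed as lower, where 3.06% of all genes did, and 0 as higher, where 3.35% did. H2-Aa, H2-Ab1, H2-Eb1 and Cd74 were lower in every dexamethasone library than in every vehicle library, both as deposited and scaled. Over all tested genes this held for 16.2% as deposited and 7.1% scaled. The median log2 fold change of the 5 tested genes was -1.59 as deposited and -1.27 scaled. In whole liver, fewer cells of a type and less RNA per cell cannot be told apart.

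**Figure D1:**
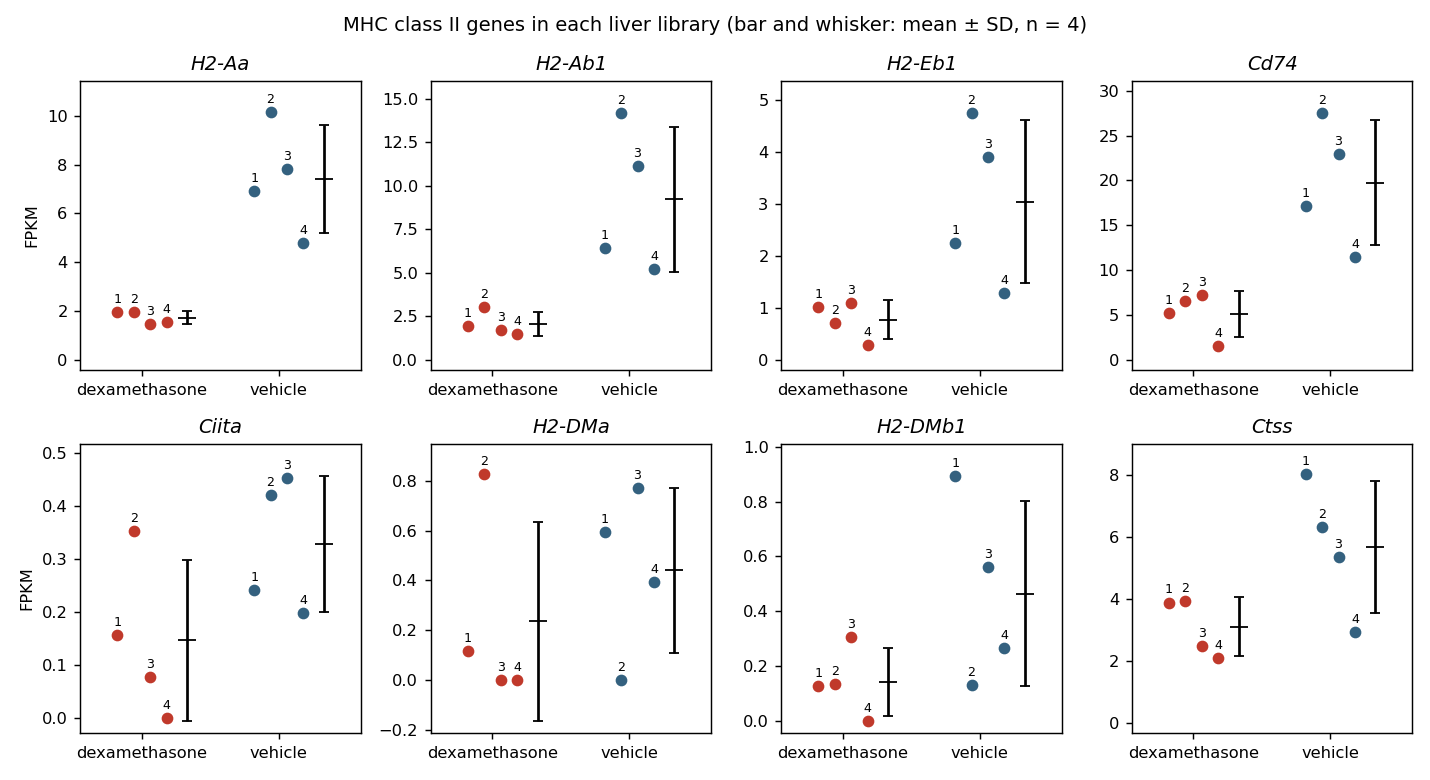
FPKM of each class II gene in each library (points, numbered by replicate; y axis in FPKM, scaled separately per gene), with mean ± SD of the 4 libraries of each group. The 4 dexamethasone libraries lie below all 4 vehicle libraries for H2-Aa, H2-Ab1, H2-Eb1 and Cd74, and the groups overlap for Ciita, H2-DMa, H2-DMb1 and Ctss.

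H2-Aa, the alpha chain of I-A, had 1.97, 1.95, 1.47 and 1.55 FPKM in dexamethasone 1 to 4, against 6.92, 10.1, 7.84 and 4.80 FPKM in vehicle 1 to 4. The dexamethasone libraries lay close together, and the lowest vehicle library, vehicle 4, stood above all of them. Mean levels were 1.74 ± 0.261 FPKM with dexamethasone and 7.42 ± 2.22 FPKM with vehicle (SD, n = 4 each), 4.28-fold lower, or 3.16-fold lower after scaling. The log2 fold change was -1.59 (SE 0.234, limma adjusted p = 0.0014), and -1.27 after scaling (SE 0.186, limma adjusted p = 0.0022). These values rest on 31 inferred fragments with dexamethasone and 174 with vehicle.

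H2-Ab1, the beta chain of I-A, had 1.96, 3.03, 1.69 and 1.47 FPKM in dexamethasone 1 to 4, against 6.42, 14.2, 11.1 and 5.22 FPKM in vehicle 1 to 4. The groups were apart, and vehicle 2 and vehicle 3 stood higher than vehicle 1 and vehicle 4. H2-Ab1 averaged 2.04 ± 0.688 FPKM with dexamethasone and 9.23 ± 4.16 FPKM with vehicle (SD, n = 4 each), 4.53-fold lower, or 3.41-fold lower after scaling. Its log2 fold change was -1.68 (SE 0.294, limma adjusted p = 0.0043), and -1.36 after scaling (SE 0.244, limma adjusted p = 0.0068).

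H2-Eb1, the I-E beta chain, had 1.01, 0.710, 1.10 and 0.278 FPKM in dexamethasone 1 to 4, against 2.25, 4.74, 3.90 and 1.28 FPKM in vehicle 1 to 4. The gap between the groups was narrow, between dexamethasone 3 and vehicle 4, and dexamethasone 4 was read from a single fragment. H2-Eb1 averaged 0.775 ± 0.371 FPKM with dexamethasone and 3.04 ± 1.57 FPKM with vehicle (SD, n = 4 each), 3.93-fold lower. Its log2 fold change of -1.12 (SE 0.295) passed the test as deposited (limma adjusted p = 0.032). After scaling the mean was 2.97-fold lower, and the log2 fold change of -0.89 (SE 0.262) did not pass (limma adjusted p = 0.074). In the scaled fragment counts with median-ratio scaling it was -1.41 and passed (limma adjusted p = 0.048). As deposited, the call was also lost when vehicle 1, vehicle 2, vehicle 3, dexamethasone 2 or dexamethasone 4 was left out, with adjusted p of at most 0.15 over all alternatives.

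Cd74 (ENSMUSG00000024610), the invariant chain, lies on the plus strand of chromosome 18 at 60803848 to 60812652 and had the highest mean FPKM of the 8 genes in both groups. It had 5.18, 6.54, 7.26 and 1.52 FPKM in dexamethasone 1 to 4, against 17.1, 27.5, 22.9 and 11.5 FPKM in vehicle 1 to 4. Dexamethasone 4 stood below the other dexamethasone libraries, with 6 inferred fragments. Cd74 averaged 5.13 ± 2.55 FPKM with dexamethasone and 19.7 ± 6.96 FPKM with vehicle (SD, n = 4 each), 3.85-fold lower, or 2.99-fold lower after scaling. The log2 fold change was -1.83 (SE 0.365, limma adjusted p = 0.0091), and -1.48 after scaling (SE 0.307, limma adjusted p = 0.015). Counted from the most negative log2 fold change of 10221 genes, Cd74 stood at place 46, H2-Ab1 at 67, H2-Aa at 82 and H2-Eb1 at 310. After scaling Cd74 stood at 46, H2-Ab1 at 72, H2-Aa at 81 and H2-Eb1 at 244. Adding 1 before the log understates changes of low genes, so these places do not order the genes by fold. In mean FPKM as deposited, Cd74 was 3.85-fold and H2-Eb1 3.93-fold lower.

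Because Lars2 took more of the dexamethasone libraries, the levels were also taken per 1000000 inferred fragments outside Lars2 (written FPM here), a measure chosen after seeing the data. Cd74 then had 24.1 ± 11.1 FPM with dexamethasone and 78.0 ± 26.0 FPM with vehicle (SD, n = 4 each), 3.24-fold lower. By the same measure H2-Aa was 3.47-fold, H2-Ab1 3.44-fold, H2-Eb1 3.19-fold and Ctss 1.42-fold lower. H2-Eb1 was then 1.50 to 4.82 FPM with dexamethasone and 4.89 to 17.2 FPM with vehicle, so its groups nearly met.

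The genes of peptide exchange were near the limit of detection. H2-DMa, the DM alpha chain, had 0.117, 0.828, 0 and 0 FPKM in dexamethasone 1 to 4, against 0.596, 0, 0.772 and 0.394 FPKM in vehicle 1 to 4. The values of dexamethasone 1 and vehicle 4 each rested on 1 inferred fragment, in libraries of 2219958 and 2190551 fragments. Why their FPKM differed was not tested. H2-DMb1, a DM beta chain, had 0.126, 0.134, 0.304 and 0 FPKM in dexamethasone 1 to 4, against 0.891, 0.131, 0.562 and 0.267 FPKM in vehicle 1 to 4. Both overlapped between the groups, and they rested on 8 and 4 inferred fragments with dexamethasone and 15 and 16 with vehicle. Fitted without the filter on low values, neither passed (limma adjusted p = 0.59 for H2-DMa and 0.28 for H2-DMb1), and a difference between the groups was not detectable at this depth.

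Ciita, the coactivator of class II transcription, had 0.157, 0.353, 0.0779 and 0 FPKM in dexamethasone 1 to 4, against 0.241, 0.421, 0.454 and 0.199 FPKM in vehicle 1 to 4. Dexamethasone 2 lay above vehicle 1 and vehicle 4, so the groups overlapped. Ciita averaged 0.147 ± 0.152 FPKM with dexamethasone and 0.329 ± 0.128 FPKM with vehicle (SD, n = 4 each), from 18 and 47 inferred fragments. Without the filter its log2 fold change was -0.22 (SE 0.111, limma adjusted p = 0.31), so a change in Ciita was not detectable at this depth.

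Ctss, the cysteine protease that trims the invariant chain, had 3.88, 3.93, 2.46 and 2.10 FPKM in dexamethasone 1 to 4, against 8.05, 6.33, 5.37 and 2.94 FPKM in vehicle 1 to 4. Vehicle 4 lay within the dexamethasone values. Ctss averaged 3.10 ± 0.950 FPKM with dexamethasone and 5.67 ± 2.13 FPKM with vehicle (SD, n = 4 each). Its log2 fold change of -0.67 (SE 0.279) did not pass the test (limma adjusted p = 0.14), nor did the scaled value of -0.34 (SE 0.217, limma adjusted p = 0.43).

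In mean FPKM, the order with dexamethasone was Cd74, Ctss, H2-Ab1, H2-Aa, H2-Eb1, H2-DMa, Ciita and H2-DMb1, and with vehicle it was Cd74, H2-Ab1, H2-Aa, Ctss, H2-Eb1, H2-DMb1, H2-DMa and Ciita. Mean ± SD of neighbours in these orders overlapped, except for H2-Aa and H2-Eb1 with dexamethasone and for H2-Eb1 and H2-DMb1 with vehicle. The proportions of the chain and invariant chain genes overlapped between the groups. H2-Aa over H2-Ab1 was 0.893 ± 0.184 with dexamethasone and 0.854 ± 0.178 with vehicle, and Cd74 over H2-Ab1 averaged 2.53 ± 1.35 with dexamethasone and 2.22 ± 0.320 with vehicle (SD, n = 4 each). Ctss over the sum of H2-Aa, H2-Ab1, H2-Eb1 and Cd74 was 0.339 ± 0.0955 with dexamethasone and 0.151 ± 0.0636 with vehicle, and its ranges overlapped (0.214 to 0.436 with dexamethasone, 0.112 to 0.246 with vehicle).

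Among the vehicle libraries, vehicle 2 had the highest and vehicle 4 the lowest FPKM as deposited of each of H2-Aa, H2-Ab1, H2-Eb1 and Cd74. After scaling the lowest H2-Ab1 was in vehicle 1 (5.18, against 5.22 in vehicle 4). The sum of the 4 genes was 9.68 ± 3.35 FPKM with dexamethasone, from 4.82 to 12.2, and 39.4 ± 14.8 FPKM with vehicle, from 22.8 to 56.6 (SD, n = 4 each). After scaling and with the group means removed, the correlation over 8 libraries was 0.80 for H2-Aa with H2-Ab1, 0.82 for H2-Eb1 with Cd74 and 0.10 for H2-Aa with Cd74. These are descriptions of 8 libraries that share their depth and few fragments per gene. By the same measure the genes outside the lists most like the mean of the 4 genes, of 8567 with a mean of at least 1 FPKM, were Opa1 (r = 0.95), Pln (r = 0.95), Gm10642 (r = 0.95), Scnn1a (r = 0.95) and Slc29a1 (r = 0.94). With any single library left out their r ranged from 0.91 to 0.98. These genes were picked for the highest r in the same libraries, so a high r was bound to remain and is no test. How high r gets by chance among 8567 genes over 8 libraries was not tested.

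**Figure D2:**
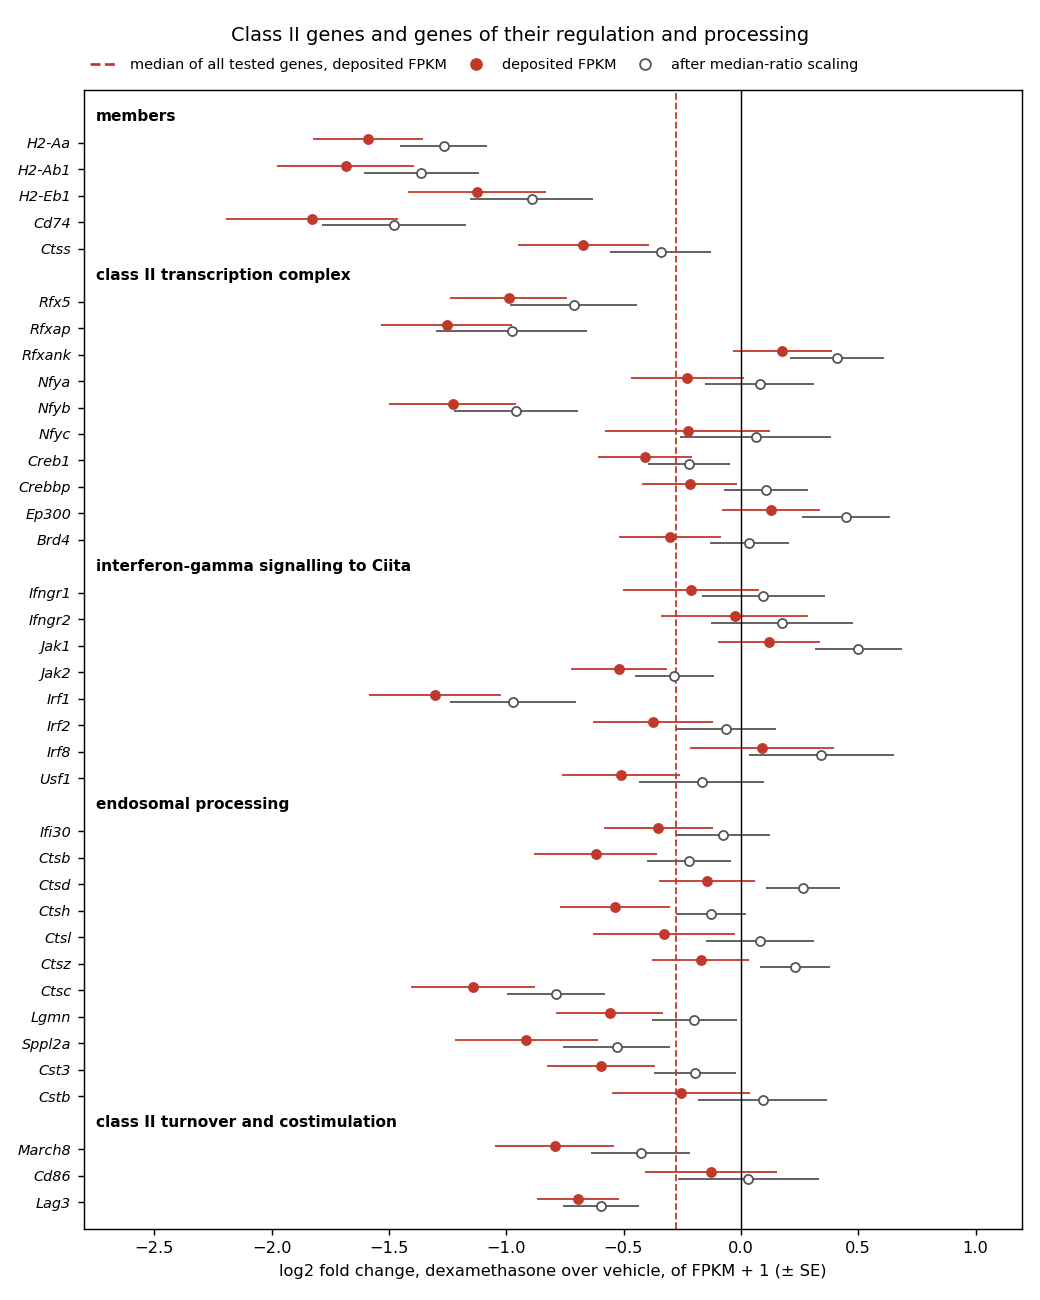
Log2 fold change (dexamethasone over vehicle, of FPKM + 1) ± SE of each tested class II gene and of tested genes of the related lists, as deposited (filled points) and after median-ratio scaling (open points). H2-Aa, H2-Ab1 and Cd74 lie at -1.27 or lower in both, while the medians of the transcription complex and of endosomal processing as deposited are -0.27 and -0.54, and that of all genes is -0.28 (dashed line).

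Other genes of the pathway were taken from lists. The 10 genes of the transcription complex that Ciita docks on were all tested, and 3 were lower as deposited and 0 after scaling. The RFX subunit Rfx5 had a log2 fold change of -0.99 (SE 0.250, limma adjusted p = 0.027, scaled 0.16), the RFX subunit Rfxap -1.25 (SE 0.279, limma adjusted p = 0.015, scaled 0.11) and the NF-Y subunit Nfyb -1.23 (SE 0.271, limma adjusted p = 0.015, scaled 0.057). Rfxap had 0.768, 0.505, 0.862 and 1.47 FPKM in dexamethasone 1 to 4, against 4.18, 2.70, 1.97 and 5.94 FPKM in vehicle 1 to 4. Its groups were apart as deposited and overlapped after scaling. It rested on 34 and 68 inferred fragments, and in the scaled fragment counts with median-ratio scaling its log2 fold change was -0.23 (limma adjusted p = 0.79). The median log2 fold change of the 10 genes was -0.27 as deposited and 0.05 after scaling, near that of all genes.

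Of the 11 genes of interferon gamma signalling to Ciita, 9 were tested, and 1, Irf1, was lower as deposited. Irf1, an interferon-induced transcription factor, had 1.91, 3.53, 1.23 and 2.65 FPKM in dexamethasone 1 to 4, against 10.5, 7.85, 4.80 and 5.74 FPKM in vehicle 1 to 4. All dexamethasone libraries lay below all vehicle libraries, as deposited and scaled. Its log2 fold change was -1.30 (SE 0.280, limma adjusted p = 0.013), and -0.97 after scaling, which did not pass (SE 0.269, limma adjusted p = 0.057). Irf1 did pass after quantile normalization (limma adjusted p = 0.047), in the scaled fragment counts (-1.27, limma adjusted p = 0.012) and with scaling but without dexamethasone 4 (limma adjusted p = 0.036). With scaling and the replicate numbers as a block it did not pass (limma adjusted p = 0.061). Nor did it with scaling and a pseudocount of 0.1 (limma adjusted p = 0.067) or no filter (limma adjusted p = 0.11). Ifng, interferon gamma itself, and Socs1, an inhibitor of its signal, were read at 0 in all 8 libraries. The median log2 fold change of the list was -0.38 as deposited and -0.06 after scaling.

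All 11 listed genes of endosomal processing were tested. As deposited and after scaling 1 passed as lower, Ctsc, a dipeptidyl peptidase that activates other proteases. Ctsc had 4.59, 7.29, 4.02 and 2.90 FPKM in dexamethasone 1 to 4, against 15.9, 8.75, 11.1 and 9.72 FPKM in vehicle 1 to 4. Its groups were apart as deposited and overlapped after scaling. The log2 fold change of Ctsc was -1.14 (SE 0.264, limma adjusted p = 0.018), or -0.79 scaled (SE 0.209, limma adjusted p = 0.049). With scaling and the replicate numbers as a block Ctsc did not pass (limma adjusted p = 0.11). Scaling with a pseudocount of 0.1 (limma adjusted p = 0.054) or no filter (limma adjusted p = 0.085) also lost the call. So did scaling without dexamethasone 4 (limma adjusted p = 0.099). As deposited, the call was lost without vehicle 1 (limma adjusted p = 0.062) or dexamethasone 3 (limma adjusted p = 0.052). Ctsc passed in the other 15 alternatives. The thiol reductase Ifi30 and the cathepsins Ctsb, Ctsd and Ctsl did not pass, and the median of the list was -0.54 as deposited and -0.13 after scaling. Of 11 genes of class II turnover and costimulation, 3 were tested and 1 was lower as deposited, Lag3, an inhibitory receptor that binds class II. Lag3 had 0.212, 0.420, 0 and 0 FPKM in dexamethasone 1 to 4, against 0.864, 0.844, 0.848 and 0.854 FPKM in vehicle 1 to 4. It reached the minimum of 0.5 FPKM only with vehicle, so it could enter the test only by differing, and it did not pass after scaling (limma adjusted p = 0.026 as deposited and 0.052 scaled). March8, a ubiquitin ligase, had a log2 fold change of -0.79 and did not pass (limma adjusted p = 0.066).

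None of the 4 listed class II genes outside the 8 was tested. H2-Ob, the beta chain of the DO molecule that restrains DM, was read at 0 in dexamethasone 1 to 4, against 0.413, 0.155, 0.307 and 0.408 FPKM in vehicle 1 to 4. Summed over libraries it had 0 of 4953123 inferred fragments outside Lars2 with dexamethasone, which allows up to 0.606 FPM (3 fragments over the group), and 11 fragments or 1.41 FPM with vehicle. Such limits cover counting error only.

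Cells that carry class II were followed through marker lists, given beside the class II genes as measured. Of 13 Kupffer cell markers 12 were tested and 0 passed as deposited, and after scaling 1 was higher, the scavenger receptor Cd163. The Kupffer cell markers summed to 40.2 to 55.8 FPKM with dexamethasone and 40.4 to 72.3 FPKM with vehicle. Clec4f, a lectin that defines Kupffer cells, had 10.3, 11.5, 11.7 and 6.01 FPKM in dexamethasone 1 to 4, against 9.13, 13.8, 11.8 and 9.14 FPKM in vehicle 1 to 4. Its groups overlapped, and its log2 fold change was -0.16 (SE 0.242, limma adjusted p = 0.70) as deposited and 0.21 after scaling, a flip in sign. Timd4, a marker of resident Kupffer cells below the filter, had 0.280, 0.328, 0.198 and 0 FPKM in dexamethasone 1 to 4, against 0.760, 0.524, 0.770 and 0.444 FPKM in vehicle 1 to 4. Cd5l, a secreted macrophage protein, averaged 5.54 ± 0.921 FPKM with dexamethasone and 10.9 ± 3.71 FPKM with vehicle (SD, n = 4 each), with a log2 fold change of -0.82 as deposited (limma adjusted p = 0.054) and -0.45 scaled (limma adjusted p = 0.25). Timd4 and Cd5l are named after their values were seen and do not stand for the list. The median log2 fold change of the 12 tested Kupffer cell markers was -0.19 as deposited and 0.095 after scaling. The scaled sum of the list was 52.6 to 62.6 with dexamethasone and 40.4 to 58.3 with vehicle.

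Set over the Kupffer cell markers in the same library, the sum of H2-Aa, H2-Ab1, H2-Eb1 and Cd74 was 0.120 to 0.223 with dexamethasone and 0.452 to 0.797 with vehicle, a mean 3.49-fold lower. Over Clec4f alone it was 0.803 to 1.06 with dexamethasone and 2.49 to 4.09 with vehicle, a mean 3.66-fold lower. Over the markers of sinusoidal endothelium it was 0.0916 to 0.148 with dexamethasone and 0.355 to 0.781 with vehicle. Over the pan-leukocyte markers it was 0.494 to 3.43 with dexamethasone and 1.87 to 7.85 with vehicle, and these ranges overlapped. No such ratio was taken over the dendritic or B cell markers, although class II genes are mainly transcribed in those cells. The dendritic cell sum was itself lower as deposited (2.94 to 3.38 FPKM with dexamethasone, 4.16 to 8.64 FPKM with vehicle).

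**Figure D3:**
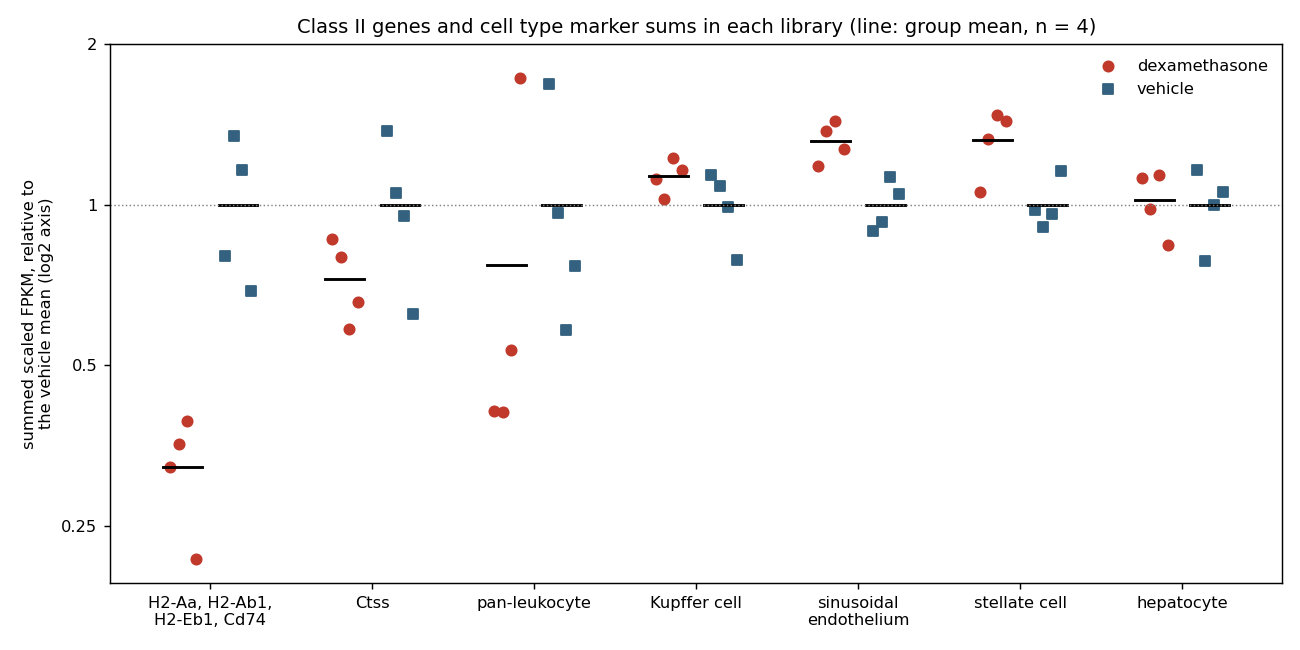
Summed scaled FPKM of H2-Aa, H2-Ab1, H2-Eb1 and Cd74, of Ctss and of 5 cell type marker lists in each library, relative to the vehicle mean (log2 axis; points are libraries, lines are group means of 4). The class II sum is 0.217 to 0.393 with dexamethasone and 0.690 to 1.35 with vehicle, while the Kupffer cell and hepatocyte sums overlap between the groups. The sinusoidal endothelium sum is higher with dexamethasone (1.18 to 1.43) than with vehicle (0.894 to 1.13). The stellate cell sum is 1.06 to 1.47 with dexamethasone and 0.907 to 1.16 with vehicle.

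Markers of leukocytes in general and of lymphoid and dendritic cells were read from few fragments and did not all go one way. Of 8 pan-leukocyte markers 5 were tested and 1 was lower as deposited, Ptprc, the CD45 gene of all leukocytes. Ptprc had 0.113, 0.267, 0.335 and 0.652 FPKM in dexamethasone 1 to 4, against 1.16, 1.55, 0.872 and 0.922 FPKM in vehicle 1 to 4, a log2 fold change of -0.67 (SE 0.192, limma adjusted p = 0.047, scaled 0.20). Its groups were apart as deposited and overlapped after scaling. The call was lost in 16 of 20 alternatives, among them each single library left out other than dexamethasone 4 (limma adjusted p up to 0.12), while the scaled fragment counts gave -1.44 (limma adjusted p = 0.028). The pan-leukocyte sum was 3.27 to 9.77 FPKM with dexamethasone and 5.82 to 17.5 FPKM with vehicle. The highest value with dexamethasone was that of dexamethasone 4, in which Coro1a, a leukocyte actin regulator, alone had 6.85 FPKM. Coro1a averaged 2.65 ± 2.84 FPKM with dexamethasone and 1.52 ± 0.837 FPKM with vehicle (SD, n = 4 each) and did not pass (limma adjusted p = 0.63).

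Of 12 dendritic cell markers 2 were tested and 0 passed. The transcription factor Zbtb46 had a log2 fold change of -0.13 as deposited (limma adjusted p = 0.72) and 0.13 scaled, from 91 inferred fragments with dexamethasone and 140 with vehicle. The lectin receptor Clec9a had 0.01 as deposited (limma adjusted p = 0.99) and 0.22 scaled, from 46 fragments with dexamethasone and 54 with vehicle. Flt3, a receptor that dendritic cells need to develop, was read at 0 in dexamethasone 1 to 4, against 0.158, 0.0870, 0.222 and 0.175 FPKM in vehicle 1 to 4, or 0 fragments against 17. Itgax, the CD11c gene, had 5 inferred fragments with dexamethasone and 24 with vehicle. The dendritic cell markers summed to 2.94 to 3.38 FPKM with dexamethasone and 4.16 to 8.64 FPKM with vehicle. The groups did not overlap in that sum as deposited and overlapped after scaling.

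Of 10 B cell markers 1 was tested and 0 passed, and 6, among them Cd79a, Cd79b and Ms4a1, were at 0 in all dexamethasone libraries. The others were read in both groups. Cd37, the tested gene, had 13 inferred fragments with dexamethasone and 14 with vehicle. Fcer2a had 6 and 3, Pax5 2 and 2, and Blk 2 and 5. Cd79a, a signalling chain of the B cell receptor, had 0 fragments with dexamethasone and 8 with vehicle. The B cell sum was 0.283 to 2.31 FPKM with dexamethasone and 1.16 to 4.14 FPKM with vehicle. Of 9 T cell markers 0 were tested and 7 were at 0 in all dexamethasone libraries, and the list had 4 inferred fragments with dexamethasone and 39 with vehicle. Over the 31 dendritic, B and T cell markers, 18 were at 0 in all dexamethasone libraries and 3 in all vehicle libraries. The number above 0 per library was 10, 9, 8 and 6 in dexamethasone 1 to 4, against 18, 21, 17 and 18 in vehicle 1 to 4. The share of all genes at 0 in every library of a group was not taken. Over all genes the number above 0 per library did not overlap either, at 11977 to 13001 with dexamethasone and 13076 to 13636 with vehicle. Depth differed in the same direction, and the part of these cells, of depth and of the Lars2 share in the class II values was not tested.

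Sinusoidal endothelium, another site of class II transcription, had 10 markers tested. As deposited 1 was higher, the hyaluronan receptor Lyve1 (log2 fold change 1.05, SE 0.281, limma adjusted p = 0.034, scaled 0.0089), and 1 lower, the VEGF receptor Kdr (-0.80, SE 0.193, limma adjusted p = 0.022, scaled 0.15). After scaling 3 were higher and 0 lower. The sum as deposited was 52.6 to 87.6 FPKM with dexamethasone and 64.2 to 82.4 FPKM with vehicle, so the groups overlapped. The median log2 fold change was -0.16 as deposited and 0.15 scaled. The scaled sum did not overlap between the groups and was higher with dexamethasone, with a mean of 1.32 relative to the vehicle mean. Stellate cell markers held 10 tested genes with 0 calls as deposited and scaled. Their scaled sum also had a mean of 1.32 relative to the vehicle mean, and its groups overlapped (1.06 to 1.47 with dexamethasone, 0.907 to 1.16 with vehicle).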

How the data were processed

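Per the labels' protocols, ribosomal RNA was removed from total liver RNA before stranded library preparation. The submitters' processing notes name CASAVA 1.8, TopHat2 and the human build hg19, although the genes listed are those of mouse. The tool used for counting is not given in the sources used here. Per the file headers, the deposited table holds FPKM and a column called count for each library. The count columns were treated as a deposited signal, because they were multiples of a step that differed between libraries. Values divided by that step are called inferred fragments, a measure of depth on protein-coding genes. The planned count models were therefore not run. Of the gene identifiers, 96.8% were in GENCODE M21.

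Genes were kept where 4 or more libraries had at least 0.5 FPKM, and log2(FPKM + 1) was fitted on treatment alone with limma 3.58.1 (lmFit, eBayes with trend; R 4.3.3). P-values are two-sided with Benjamini-Hochberg adjustment over 10221 genes and a threshold of 0.05. Fold changes on this scale understate those of low genes. The fit was tested on simulated data. For median-ratio scaling, each gene was divided by its geometric mean over libraries, and a library's values by the median of these ratios. Sums, ratios and shares were computed with Python 3.11.15 and have no test.

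The genes, lists and motifs were chosen with earlier results of these data known. By rule, named genes were the 8 genes, up to 4 passing genes of smallest p from each list and the 5 most alike genes. The rule also named the defining genes Ptprc, Clec4f, Itgax, Flt3 and Cd79a. Further genes, such as March8, Coro1a, Zbtb46, Clec9a, H2-Ob, Timd4, Cd5l, Cd37 and Fcer2a, were named outside this rule. Some listed genes are counted but not reported by name here. March8 was matched by its identifier, since its symbol had become a date. Groups share replicate numbers, but no label pairs them and libraries of the same number correlated by -0.015 to 0.021 after group means were removed.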

Additional observations from a re-analysis of the deposited data

Results flagged for a closer look

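In H2-DMa, dexamethasone 2 stood at 0.828 FPKM, far from the other dexamethasone libraries, which were at 0.117, 0 and 0 FPKM. Its gap to the nearest of them was 0.858 of the range of the group, above Dixon's critical value for 4 libraries. The value rests on 7 inferred fragments. For normally distributed values, chance flags about 1 in 20 groups. The rate for values with zeros and few fragments, as here, was not tested.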

How the results depend on the processing

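H2-Aa, H2-Ab1 and Cd74 stayed lower and past the threshold in 21 of 21 alternatives, with adjusted p of at most 0.015, 0.021 and 0.046. H2-Eb1 stayed lower and passed in 9 of 21, with log2 fold changes of -1.82 to -0.78, and Ctss passed in 0 of 21. Either 3 or 4 of the 8 genes were called lower and 0 higher in each alternative. The counts over all genes moved more. Genes higher were 342 after median-ratio scaling, 331 after quantile normalization, 544 for scaled fragment counts with median-ratio scaling, and 81 to 145 with each library left out. Genes lower were 313, 341 and 538 under the same settings, 487 with no filter, and 337 to 872 with each library left out (382 without vehicle 1, 337 without vehicle 2, 380 without vehicle 3, 448 without dexamethasone 3). Median-ratio scaling with 3 further changes, chosen after seeing the data, gave 322 higher and 278 lower with a pseudocount of 0.1, 254 and 226 with no filter, and 280 and 281 without dexamethasone 4. Clec4f reversed to 0.215 after median-ratio scaling (also with no filter or the replicate block), 0.157 after quantile normalization, 0.134 for scaled fragment counts, 0.234 with a pseudocount of 0.1 and scaling, and 0.310 with scaling and 0.0399 without scaling when dexamethasone 4 was left out (-0.244 to 0.0399 with each library left out). For each of these the cause was not tested.

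With the replicate block, 159 genes were higher and 956 lower, and with the block and median-ratio scaling 243 and 190. With the block alone the SE was smaller for each tested class II gene, at 0.204 for H2-Aa, 0.214 for H2-Ab1, 0.2285 for H2-Eb1, 0.194 for Cd74 and 0.190 for Ctss. Of the dexamethasone libraries 1 of 4 was most like the vehicle library of its own number. With so few libraries this cannot settle whether the numbers pair them. Depth limits Ciita, H2-DMa and H2-DMb1, which rest on at most 47 inferred fragments per group.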
